A study of Homo sapiens with 4 samples.

Results

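The genes of Polycomb repressive complex 2 (PRC2) were examined in ATAC-seq data of LNCaP cells and of LNCaP cells resistant to enzalutamide. Of 20037 protein-coding genes, 10 were taken: the catalytic subunits EZH2 and EZH1, the core subunits SUZ12 and EED, the histone-binding subunits RBBP4 and RBBP7, the Polycomb-like subunits MTF2, PHF19 and PHF1, and JARID2. They were taken by name, as subunits of the complex, and no value entered the rule. Every ATAC-seq summit inside one of these genes or within 10 kb of either end was used. ATAC-seq inserts sequencing adapters into open DNA, and a summit is the base at which a peak of insertions was strongest. LNCaP is an androgen-dependent prostate cancer cell line, labelled wild type here and without a treatment. The resistant cells, labelled as resistance cells treated with enzalutamide, an androgen receptor inhibitor, were derived from LNCaP by growth in serum stripped of steroids and in rising concentrations of the drug. The study made several such sublines, and the labels do not say which one these libraries came from. Each group had 2 libraries, labelled as repeats 1 and 2, and the resistant libraries stand for 1 parental line. The study describes its experiments in general as independently replicated, but the labels do not say that the repeats of these libraries came from separate cultures, so their spread may be technical.

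PRC2 methylates lysine 27 of histone H3, the mark of genes held silent through development. EZH2 or EZH1 carries the methyltransferase activity, EED reads the mark, SUZ12 holds the complex together, and RBBP4 or RBBP7 contacts histones. The remaining subunits guide the complex: MTF2, PHF19 and PHF1 belong to one of its variants, PRC2.1, and JARID2 to the other, PRC2.2. EZH2 is widely studied in advanced prostate cancer, where it is often abundant.

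LNCaP replicates 1 and 2 had 117245 and 107344 summits, and resistant replicates 1 and 2 had 70866 and 45618, so the number of summits moved with the groups. No reads were given, so depth is unknown, and the part of list length in any difference below was not tested. Each summit has a score on the −log10 scale, and the values below are percentiles: the percent of the summits of that library that scored no higher. Of 10 luminal prostate marker genes, 8 had a summit within 1 kb of a gene start in all 4 libraries. Of 3 blood, 2 endothelial and 2 fibroblast markers, none did, although 1 blood and 1 fibroblast marker had such a summit in at least 1 library.

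All 10 PRC2 genes had a promoter summit in both cell types. A promoter summit lies within 1 kb of a RefSeq gene start, and all 4 libraries held one for these 10 genes and for 62.9% of 15843 protein-coding genes. The lowest promoter percentile among the LNCaP libraries was 33.2, for SUZ12 in replicate 1. PHF19 led both groups, with means of 98.1 ± 0.355 and 96.7 ± 3.12 (SD, n = 2 each). PHF1 and RBBP4 followed in LNCaP and did not differ beyond their spread, and JARID2 came next, apart from both. From EZH1 down to SUZ12, which was last in LNCaP with 47.3 ± 20.1 (SD, n = 2), each gene overlapped its neighbour in the order. RBBP7 was last in resistant cells, with 56.0 ± 32.1 (SD, n = 2).

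**Figure D1:**
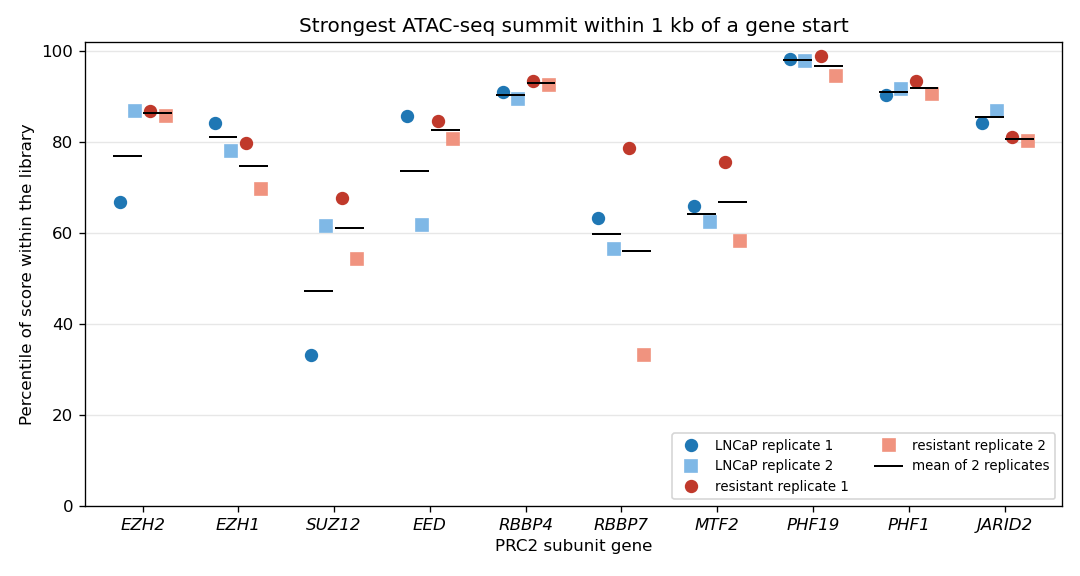
Percentile of the strongest summit within 1 kb of a gene start (vertical axis, 0 to 100) for the 10 PRC2 genes, 1 point per library and a bar at the mean of the 2 replicates. PHF19 sits above 94 in every library, JARID2 is the gene with both resistant points below both LNCaP points, and RBBP4 is the gene with both resistant points above.

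Only RBBP4 had both resistant percentiles above both LNCaP percentiles, and only JARID2 had both below, when all summits of a library were ranked. Among 9972 protein-coding genes with a promoter summit in all 4 libraries, 27.5% were higher without overlap and 21.4% were lower. The median change over the PRC2 genes was 1.84 percentile points, beside 0.303 for all those genes. It turned to -0.445, -0.346 and -2.00 without LNCaP replicate 1, LNCaP replicate 2 and resistant replicate 1, and to 6.59 without resistant replicate 2. With 2 libraries against 2, the smallest p that an exact two-sided permutation test can give is 0.333, so single genes were not tested that way. Within repeat numbers, RBBP4 was higher in both pairs, beside 35.2% of those genes, and EZH1 and JARID2 were lower in both, beside 28.9%. In the full lists the changes of EZH1, RBBP4 and JARID2 kept their sign whichever library was left out, and those of the other 7 genes turned without one of the libraries. How often this happens over all genes was not counted.

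This outcome depended on the ranking. With the 45618 strongest summits of each library, 9 PRC2 genes were higher without overlap and none lower, beside 68.6% and 5.23% of all genes. SUZ12 in LNCaP replicate 1 and RBBP7 in LNCaP replicate 2 then had no promoter summit and counted as percentile 0, and 8 of the 10 genes had one in all 4 libraries, beside 83.0% of all genes. The median change was then 28.0 points for the PRC2 genes and 15.0 for all genes. The third ranking, called among shared sites here, set the strongest promoter summit against the scores of the sites shared by the 4 libraries. The summit itself did not have to lie at a shared site. For EED, RBBP7 and, in LNCaP replicate 1, RBBP4 it did not. In this ranking 6 genes were higher and none lower, beside 54.5% and 8.65%, with medians of 13.5 and 8.58. The median of all genes moved with the ranking, so each change was set against it. EZH2, SUZ12, EED and MTF2 lay above that median, and PHF19 and JARID2 below it, under all 3 rankings. RBBP4 and PHF1 lay above it in the full lists and among shared sites, and at or below it with equal numbers. RBBP7 lay below it in the full lists and above it in both other rankings, and EZH1 lay below it except with equal numbers. The share of all genes that stay on one side of the median under all 3 rankings was not counted. In the full lists the quartiles of all genes were -3.24 and 5.63 points, and the changes of MTF2 and PHF19 lay between them.

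**Figure D2:**
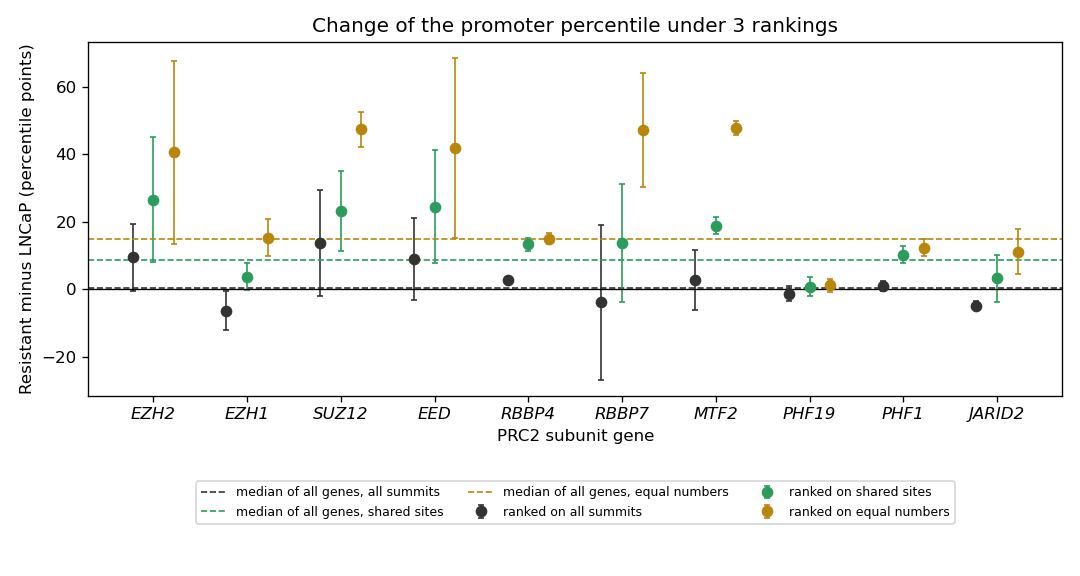
Difference of the group means, resistant minus LNCaP, in percentile points (vertical axis) for each PRC2 gene under 3 rankings. Error bars are the pooled SD of the replicates, and dashed lines mark the median of 9972 genes under each ranking, which were 0.303, 8.58 and 15.0. EZH1, RBBP7, PHF19 and JARID2 lie below 0 on the full lists and above 0 in the other rankings.

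EZH2, the catalytic subunit of dividing cells, lies at chr7:148807383-148884291 of GRCh38 on the minus strand. Its strongest promoter summit had percentiles of 67.0 and 86.9 in LNCaP replicates 1 and 2, and of 86.9 and 85.9 in resistant replicates 1 and 2. LNCaP replicate 1 was low, the other LNCaP library was level with the resistant ones, and the groups overlapped. The means were 76.9 ± 14.1 and 86.4 ± 0.758 (SD, n = 2 each), a change of 9.46 points that became -0.484 without LNCaP replicate 1 and 19.4 without LNCaP replicate 2. In limma each site was tested against 0, and the median difference over all shared sites was -0.221 in normal scores. The EZH2 site was not called, with a difference of 0.32 ± 0.28 (SE) and an adjusted p of 0.480. It was called higher when equal numbers of summits were used, with an adjusted p of 0.0414, and on log2 scores, with an adjusted p of 0.00646. Counting from the upstream start, the summit lay at base -132 in both LNCaP libraries, at -133 in resistant replicate 2 and at -59 in resistant replicate 1.

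The 3 protein-coding genes whose 4 promoter percentiles were most like those of EZH2 were CIMAP1C, COX4I1 and EMC8. The largest difference in any library was 2.44 points for CIMAP1C and 2.90 points for COX4I1 and EMC8, which had the same values. Likeness over 4 libraries is a description of these lists.

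EZH1, the paralog of EZH2 that predominates in resting cells, lies at chr17:42700275-42745040. Its promoter percentiles were 84.2 and 78.0 in LNCaP and 79.8 and 69.8 in resistant cells. The groups overlapped, with resistant replicate 2 the lowest. The change of -6.32 points turned to 15.3 with equal numbers, to 3.77 among shared sites and to 21.4 when the summit closest to the start was used. It was -11.3 without resistant replicate 1, and -3.22 and -1.35 without LNCaP replicate 1 and resistant replicate 2.

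The base sequences upstream of 3 of these genes are shown as examples. They are EZH2, RBBP4, whose resistant percentiles were both higher, and RBBP7, whose start summit was absent from 1 resistant library. Their strongest promoter summits fell inside, apart from RBBP4 in LNCaP replicate 1 and RBBP7 in resistant replicate 2. The MTF2 promoter summits also fell inside its window, which is not shown and held no match to the motifs searched. Each is the RefSeq sequence of GRCh38.p14 from 250 bases to 1 base before the upstream start, read 5′ to 3′ on the strand of the gene. Capitals mark matches on either strand to ATTGG, the NFY motif, and to GGGCGG, the SP motif. The windows are chr7:148884292-148884541, minus strand, chr1:32650958-32651207, plus strand, and chrX:16870363-16870612, minus strand.
EZH2: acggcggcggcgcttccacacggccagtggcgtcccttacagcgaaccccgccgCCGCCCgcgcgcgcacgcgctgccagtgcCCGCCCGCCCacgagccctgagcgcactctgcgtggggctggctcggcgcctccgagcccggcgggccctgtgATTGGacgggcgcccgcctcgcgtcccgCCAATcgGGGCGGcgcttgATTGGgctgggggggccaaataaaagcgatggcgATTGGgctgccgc
RBBP4: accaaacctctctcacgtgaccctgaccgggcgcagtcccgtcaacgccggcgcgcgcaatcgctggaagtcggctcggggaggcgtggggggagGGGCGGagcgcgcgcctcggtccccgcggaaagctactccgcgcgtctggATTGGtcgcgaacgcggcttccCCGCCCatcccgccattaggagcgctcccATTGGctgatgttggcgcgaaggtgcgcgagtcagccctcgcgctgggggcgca
RBBP7: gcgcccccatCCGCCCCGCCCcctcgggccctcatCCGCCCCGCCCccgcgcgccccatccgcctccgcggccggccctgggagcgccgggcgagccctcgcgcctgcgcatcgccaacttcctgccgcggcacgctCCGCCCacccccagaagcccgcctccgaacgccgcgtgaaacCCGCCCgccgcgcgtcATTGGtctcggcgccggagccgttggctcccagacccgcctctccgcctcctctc

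The EZH2 window held 4 matches to ATTGG, a number reached in 0.874% of 35114 RefSeq windows of the same length. It also held 4 matches to GGGCGG, 2 of them overlapping each other. The promoter summit of resistant replicate 1, at base -59, fell on the first base of the GGGCGG match nearest to the start. ATTGG was found at 7 of the PRC2 genes, in 10 of their 15 windows, beside 32% of all windows. GGGCGG was found at 8 genes, in 13 of 15 windows, beside 42.6% of all windows. The PRC2 windows were rich in G and C, with a median of 72.8% beside 58% for all windows, and these matches are a description of the letters.

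Of the other motifs searched on both strands, the E2F letters TTTCGCGC, TTTGGCGC or TTTCCCGC stood at SUZ12 and PHF19 and in 2.32% of all windows. The YY1 letters AANATGGC stood at RBBP7 and PHF19 and in 3.86% of all windows. The ETS letters CCGGAAG stood at PHF19 and in 8.52%, and the CRE letters TGACGTCA at JARID2 and in 1.65%. The palindromic NRF1 motif stood in none of the 15 windows and in 1.03% of all.

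SUZ12, which all PRC2 assemblies need, lies at chr17:31937007-32001038. Its promoter percentiles were 33.2 and 61.5 in LNCaP and 67.8 and 54.4 in resistant cells. LNCaP replicate 1 was the low library here too, as it was for EZH2, and the groups overlapped. The change of 13.8 points became -0.408 without that library, 28.0 without LNCaP replicate 2 and 7.09 without resistant replicate 1. The difference in normal scores was 0.36 ± 0.40 (SE), with a limma adjusted p of 0.591.

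EED, whose aromatic cage binds methylated lysine 27, lies at chr11:86244753-86287615. Its promoter percentiles were 85.7 and 61.8 in LNCaP and 84.7 and 80.6 in resistant cells. LNCaP replicate 2 was low, and its strongest summit lay at base -251 from the start, whereas the summits of the other 3 libraries lay 476 to 496 bases after the start. No EED site was therefore shared by the 4 libraries, and none was tested. The change of 8.94 points became 20.9 without LNCaP replicate 1 and -3.03 without LNCaP replicate 2.

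RBBP4, a WD40 histone chaperone that also serves other chromatin complexes, lies at chr1:32651208-32686211. Its strongest promoter summit had percentiles of 91.1 and 89.5 in LNCaP and 93.5 and 92.7 in resistant cells. The resistant libraries were higher without overlap under all 3 rankings, by 2.77 points in the full lists, 13.3 among shared sites and 15.0 with equal numbers. In LNCaP replicate 1 the strongest summit lay 630 bases before the start, at a site 28 bases from the start of the neighbour ZBTB8OS. At the site shared by all libraries, 43 to 45 bases before the start, the LNCaP values were 90.3 and 89.5, and the groups were again apart. The limma difference at that site was 0.21 ± 0.24 (SE), with an adjusted p of 0.611, and the site was called higher on log2 scores and with equal numbers, with adjusted p-values of 0.0273 and 0.0455.

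RBBP7, its paralog on the X chromosome, lies at chrX:16844341-16870362. The promoter percentiles were 63.3 and 56.5 in LNCaP and 78.7 and 33.3 in resistant cells. The 2 resistant libraries differed most here, one above and the other below both LNCaP libraries. The change of -3.88 points became -0.481 and -7.28 without LNCaP replicate 1 or 2, and -26.6 and 18.8 without resistant replicate 1 or 2. The summit 10 to 13 bases before the upstream start was listed in LNCaP replicates 1 and 2 and in resistant replicate 1, and not in resistant replicate 2. Both resistant libraries had a summit 743 to 853 bases after that start, at percentiles of 39.2 and 33.3, where neither LNCaP library had one. This was the only resistant-only site of the 10 genes.

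MTF2, a Polycomb-like protein that binds unmethylated CpG-rich DNA, lies at chr1:93079283-93139076. Its promoter percentiles were 66.1 and 62.6 in LNCaP and 75.7 and 58.3 in resistant cells. The groups overlapped in the full lists and were apart, with the resistant libraries higher, among shared sites and with equal numbers. A further site about 1.33 kb after the start had percentiles of 86.0 and 58.6 in LNCaP and 51.7 in resistant replicate 1, and no summit in resistant replicate 2. Taking the strongest summit within 3 kb therefore gave a change of -7.25 points in place of 2.67. That change was also -6.06 without resistant replicate 1, 11.4 without resistant replicate 2, and 4.45 and 0.894 without LNCaP replicate 1 or 2.

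PHF19, at chr9:120855651-120904128 on the minus strand, had the strongest promoter summit of the 10, 129 to 220 bases after the more downstream of its 2 starts. Both starts used, at bases 120868911 and 120877188, lie inside the gene. The strongest summit was 35346 to 35437 bases from the 5′ end of the gene. Its percentiles were 98.3 and 97.8 in LNCaP and 99.0 and 94.5 in resistant cells. The groups overlapped, and the change was -1.33 points in the full lists, 0.809 among shared sites and 1.15 with equal numbers. It was -3.54 without resistant replicate 1 and 0.869 without resistant replicate 2.

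Among the 17 sites that all 4 libraries held, the one with the largest difference was also at PHF19, 636 to 1204 bases after its upstream start. Its percentiles were 20.2 and 8.62 in LNCaP and 61.2 and 41.2 in resistant cells. Both resistant libraries were higher, by 36.8 points in the full lists and by 27.7 points among shared sites. Its limma difference was 1.13 ± 0.52 (SE), with an adjusted p of 0.137, and it was called higher by rank among shared sites, with an adjusted p of 0.0183, and on log2 scores, with an adjusted p of 0.0300. The summit of resistant replicate 1 lay at 636 bases and those of the other libraries at 1142 to 1204.

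PHF1, the last of the Polycomb-like proteins, lies in a gene-dense stretch at chr6:33410412-33416439. Its promoter percentiles were 90.4 and 91.7 in LNCaP and 93.5 and 90.6 in resistant cells, and the groups overlapped. The change of 1.01 points turned to -0.452 without resistant replicate 1 and to -38.5 when the summit closest to the start was used, since resistant replicate 2 alone had a weak summit at base -46, at percentile 11.5. It was 2.47 without resistant replicate 2, and 0.379 and 1.63 without LNCaP replicate 1 or 2. A site 7.21 kb from its start, 116 bases from the start of CUTA, had percentiles of 92.0 and 95.4 in LNCaP and 97.7 and 98.7 in resistant cells. This CUTA site, inside the PHF1 window, had the lowest limma adjusted p of all sites in the windows, 0.116, and was called higher by rank among shared sites, with an adjusted p of 0.0124.

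JARID2, a DNA-binding cofactor related to the Jumonji demethylases but without their activity, lies at chr6:15246069-15522042 and is by far the longest of these genes. Its promoter percentiles were 84.3 and 86.9 in LNCaP and 81.2 and 80.3 in resistant cells. Both resistant libraries were lower, by 4.88 points on the means, but the direction turned to 11.1 points higher with equal numbers and to 3.29 points higher, with overlap, among shared sites. The strongest summit lay at bases -306 and -318 from the upstream start in LNCaP and at -650 and -660 in resistant cells. The limma difference was -0.20 ± 0.26 (SE), beside a median of -0.221 over all shared sites, with an adjusted p of 0.662.

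Across the whole gene windows, sites found only in LNCaP outnumbered sites found only in resistant cells. Summits within 500 bp of each other were merged over the 4 libraries into 84 sites in the 10 windows, of 150917 in the genome. Of the 84, 17 were shared by all libraries, 23 were LNCaP-only (both LNCaP libraries and no resistant one), 1 was resistant-only and 43 were mixed. As a share, 27.4% were LNCaP-only, beside 27.5% of all sites, and 1.19% were resistant-only, beside 3.84%. Of 21 sites within 1 kb of any gene start, 12 were shared and none was LNCaP-only, or 57.1% and 0%, beside 55.5% and 7.66% of such sites in the genome. All 23 LNCaP-only sites lay among the 63 farther sites, 36.5% of them, beside 30.2% of such sites in the genome. JARID2 alone had 16 of its 35 farther sites LNCaP-only, 45.7%, and the other 9 genes had 7 of 28, 25%. Without LNCaP replicate 1 or 2, 36 or 37 sites were LNCaP-only, and without LNCaP replicate 1, resistant replicate 1 or resistant replicate 2, 5, 4 or 3 were resistant-only, since presence was then asked of 1 library of that group or absence of 1 library of the other. Apart from JARID2, with 37 sites, each window held 4 to 7 sites. PHF19 and PHF1 had 3 shared sites each, EZH1, SUZ12 and RBBP4 had 2, EZH2 and MTF2 had 1, and EED and RBBP7 had none. Of the 84, 30 were seen in a single library, 78 had a LNCaP summit and 36 a resistant summit.

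**Figure D3:**
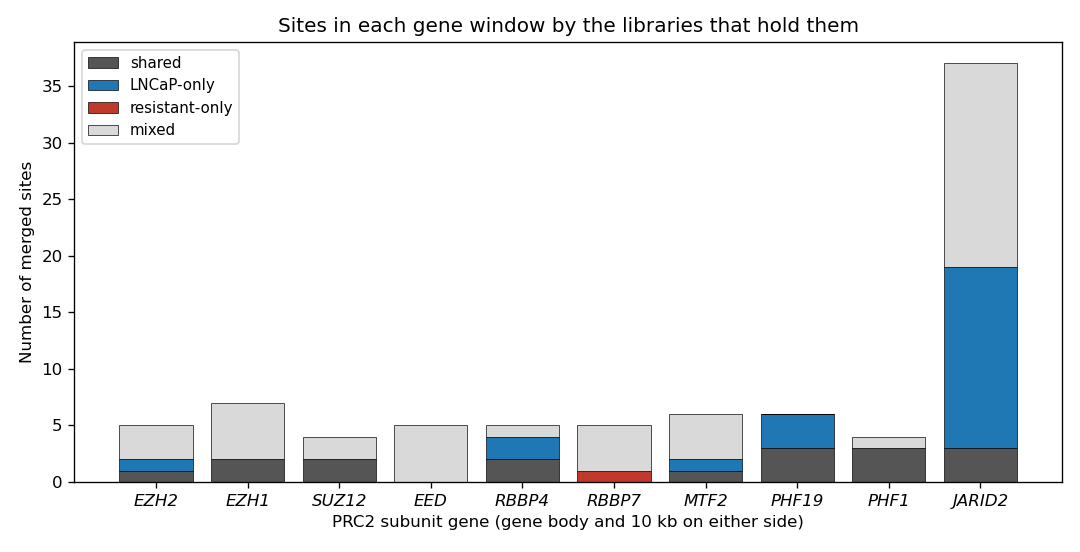
Number of merged sites (vertical axis) in the window of each PRC2 gene, stacked by the libraries that hold a summit. JARID2 has 37 of the 84 sites and 16 of the 23 LNCaP-only sites, and RBBP7 has the 1 resistant-only site.

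JARID2 held 31 and 30 summits in LNCaP replicates 1 and 2, and 8 and 7 in resistant replicates 1 and 2. As a share of each list, these were 0.0264% (95% Wilson interval 0.0186 to 0.0375), 0.0279% (0.0196 to 0.0399), 0.0113% (0.00572 to 0.0223) and 0.0153% (0.00743 to 0.0317), and the intervals cover counting error only. Both resistant shares were below both LNCaP shares, although their intervals overlapped those of the LNCaP libraries. With the 45618 strongest summits of each library the numbers were 10 and 7 in LNCaP and 4 and 7 in resistant cells, so the groups were no longer apart. The other 9 genes together held 34 and 35 summits in LNCaP and 24 and 21 in resistant cells, or 0.0290%, 0.0326%, 0.0339% and 0.0460% of the lists, with the higher shares in the resistant libraries.

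**Figure D4:**
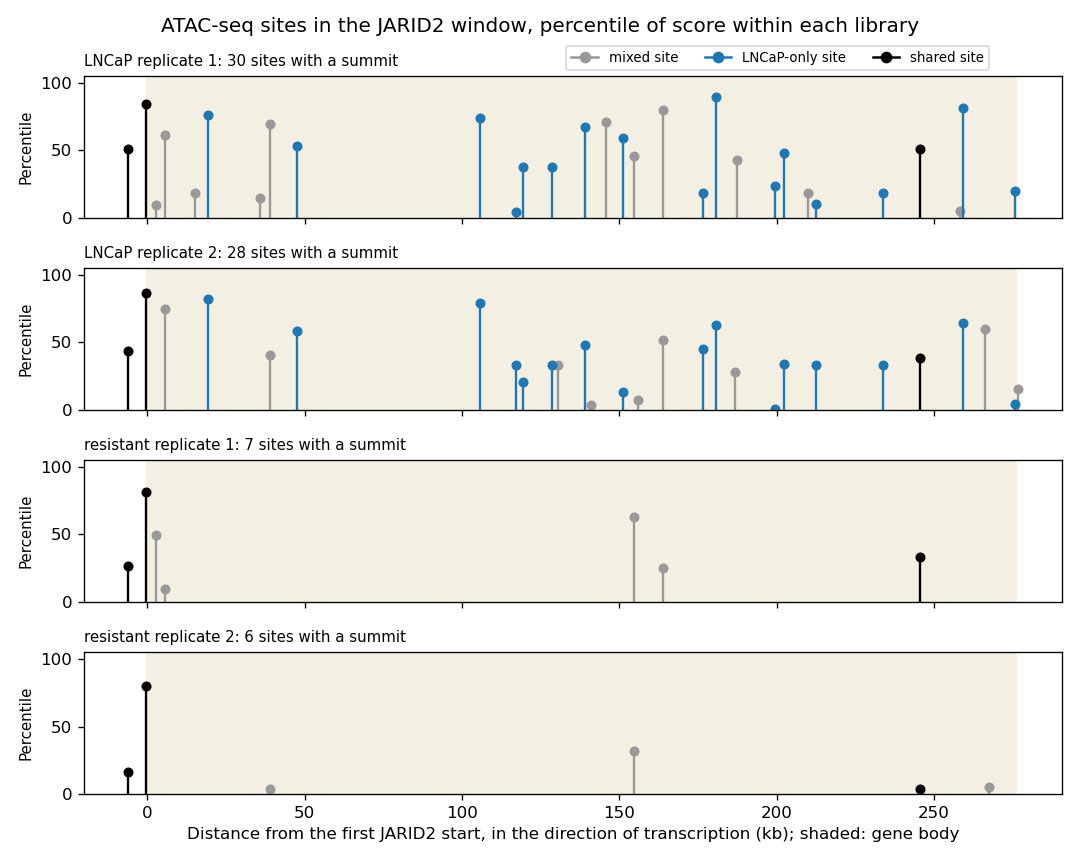
Percentile (vertical axis) of each JARID2 site in the 4 libraries against the distance from the first JARID2 start in kb, with the gene body shaded. The LNCaP libraries have a summit at 30 and 28 sites spread over the gene, and the resistant libraries at 7 and 6 sites.

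Of the 37 JARID2 sites, 16 were LNCaP-only, 3 were shared and 18 were mixed, and none was resistant-only. Among 871 protein-coding genes with at least 20 sites the median share of LNCaP-only sites was 31.8%, and 82.9% of them had a share at or below the 43.2% of JARID2. Among 338 such genes of 200 to 400 kb, 83.7% did. Over all protein-coding genes, 107 had as many LNCaP-only sites as JARID2 or more, JARID2 included. Sites of any library counted toward the minimum of 20. JARID2 had a summit at 7 and 6 sites in the resistant libraries, so it passed that minimum through its LNCaP sites. Its share was thus compared within a set chosen in part by LNCaP sites, and its place there is a description only.

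The strongest LNCaP-only site of JARID2 lay 19.1 kb inside the gene, at chr6:15264920-15265429, with percentiles of 76.1 and 82.4. The next by mean percentile lay 106 kb inside, with percentiles of 73.9 and 79.1, 181 kb inside, with 89.7 and 62.7, and 259 kb inside, with 81.6 and 64.4. At these 4 sites the resistant lists held no summit. Most LNCaP-only sites of the 10 genes were weaker, with a median of the mean percentile of 35.2 beside 47.1 for all LNCaP-only sites. A mean percentile of 75 was reached by 4 of 23, or 17.4%, beside 15.6% of all LNCaP-only sites.

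The 3 shared JARID2 sites were all lower in both resistant libraries in the full lists, as were 41.8% of all shared sites. Ranked among shared sites, where 30% were lower, the promoter site overlapped and its change turned positive. Under that ranking the sites about 6 kb upstream and 246 kb inside stayed lower without overlap, with changes of -7.94 and -9.05 points. In the full lists, the site about 6 kb upstream had percentiles of 50.7 and 43.4 in LNCaP and 26.3 and 16.5 in resistant cells. The site 246 kb inside had percentiles of 50.7 and 38.5 in LNCaP and 33.0 and 3.86 in resistant cells. Neither was called by limma, with adjusted p-values of 0.332 and 0.254. Without resistant replicate 1, a site 38.8 kb inside was called lower (adjusted p = 0.0212), and without resistant replicate 2, one 5.53 kb inside (adjusted p = 0.0128). Each entered the fit only because the library that lacked its summit was left out, and the lone resistant library was assumed to vary like the LNCaP libraries, so neither call compares replicated groups. In those fits 26.5% and 14.9% of all sites were called lower.

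Of the other genes, EZH2 had 1 LNCaP-only site, 18.8 kb inside the gene at chr7:148865237-148865758, with percentiles of 78.2 and 86.1. It was the strongest LNCaP-only site of all 10 genes by mean percentile. PHF19 had 3 such sites, the strongest at percentiles of 54.6 and 49.1, and RBBP4 had 2, the stronger at 25.4 and 15.5. MTF2 had 1, at 63.0 and 20.4. A shared RBBP4 site 25.9 kb inside the gene had percentiles of 63.6 and 74.5 in LNCaP and 49.0 and 41.1 in resistant cells, and its groups were apart in the full lists and overlapped among shared sites. EZH1, SUZ12, EED, RBBP7 and PHF1 had no LNCaP-only site.

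In the limma fit over all 31833 shared sites, 17 sites of 8 PRC2 genes were tested and none passed an adjusted p of 0.05, beside 18.6% of all shared sites, 2.99% higher and 15.6% lower. At an unadjusted p under 0.05 there were 2, the PHF19 and CUTA sites above, beside 30.9% of all. By rank among shared sites the split of all calls was 13% higher and 14.4% lower, with equal numbers 15.8% and 10%, and on log2 scores 17.3% and 14.7%. Under these settings 2 of 17, 5 of 10 and 4 of 17 sites in the PRC2 windows were called, all higher in resistant cells. The 5 with equal numbers were at EZH2, RBBP4, MTF2, LRRC37B in the SUZ12 window and CUTA in the PHF1 window. Each difference was tested against 0, and the median difference over all shared sites was -0.221 in the main fit. That median was 0.0722 by rank among shared sites, 0.224 with equal numbers and 0.201 on log2 scores. The shares of all shared sites given here were not matched for position. Of the 17 sites in the PRC2 windows, 12 lay within 1 kb of a gene start, beside 10096 of the 31833. By percentiles without overlap, a different measure, 68.6% of promoters of all genes were higher with equal numbers. No share of limma calls at promoters was computed, so whether these counts are an excess at the PRC2 genes was not tested.

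Other Polycomb genes were taken as a list of 31, of which 26 had a RefSeq start in the table used. Promoter summits in all 4 libraries were found for 20, of which 5 were higher and 5 lower without overlap, 25% each, beside 27.5% and 21.4% of all genes. None of the 19 tested promoter sites was called by limma, beside 18.6% of all shared sites, and the median change was 0.910 points, beside 0.303. Of all 31833 shared sites, 21737 lay farther than 1 kb from a gene start, so the 18.6% is not a share of promoters. EZHIP, an inhibitor of PRC2, had no promoter summit in either LNCaP library and percentiles of 59.7 and 36.2 in the resistant libraries. KDM6B, which removes the methyl mark, had percentiles of 87.7 and 80.3 in LNCaP, 73.7 in resistant replicate 1 and no promoter summit in resistant replicate 2. ASXL3, a cofactor of the deubiquitinase that acts on the PRC1 mark, had percentiles of 28.6 and 27.1 in LNCaP and 76.8 and 61.7 in resistant cells. For ASXL3 the limma adjusted p was 0.0649, and the EZHIP and KDM6B promoters, missing from some libraries, were not tested.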

How the data were processed

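ATAC-seq was performed on 2 LNCaP and 2 resistant libraries. The authors deposited 1 summit list per library, with a score on the −log10 scale (p or q not given in the sources used here) and a lowest value just above 1.3, that of 0.05. The submitters' processing notes name hg38, Bowtie2 2.2.5, SAMtools 1.6, MACS2 2.2.6, deepTools 3.5.2, HOMER 4.11 and edgeR 3.22.5, without roles. Peaks were called per library. Depth is unknown.

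Summits were ranked within each library. Summits widened by 250 bp were merged into sites. Promoter values are the strongest summit within 1 kb of a RefSeq (GRCh38.p14) start. A gene without one got percentile 0. limma 3.58.1 (eBayes with trend) was run on normal scores of the percentiles over all shared sites, with Benjamini-Hochberg adjustment. Python 3.11.15, pandas 2.3.3 and R 4.3.3 were used. The computation was tested on simulated data.

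Members, gene lists and tests were chosen with earlier results of these data known. All members were named, with the strongest LNCaP-only and resistant-only site of each, shared sites with a change of at least 30 points without overlap, other Polycomb genes by the same limit, and the 3 genes nearest to EZH2. The RBBP4, JARID2 and MTF2 sites beyond that rule, and the CUTA and LRRC37B sites, were chosen after their values were seen. Repeat numbers did not pair the libraries (correlation of deviations -0.0295). Exons and introns were not analysed here.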

Additional observations from a re-analysis of the deposited data

How the results depend on the processing

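Of the sites in the windows, 17 were shared, and 7 with the gene body alone, 10 with a score of at least 10 or with equal numbers of summits, and 30 with membership by at least 1 library. LNCaP-only sites went from 23 to 8 with a score of at least 10, 6 with equal numbers and 48 with membership by at least 1 library. Resistant-only sites went from 1 to 4 with a half-width of 100 bp or equal numbers, 6 with membership by at least 1 library, and 0 with a half-width of 500 bp or a score of at least 10. With equal numbers, 6 of 45 sites were LNCaP-only and 4 were resistant-only, beside 17.1% and 14.9% of all sites. Of the 16 JARID2 sites, 5 were then LNCaP-only and 1 was resistant-only. Such shares are not given for the other settings. Leaving out 1 library gave 17 to 22 shared, 24 to 37 LNCaP-only and 1 to 5 resistant-only sites.

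Summits in the windows numbered 65, 65, 32 and 28. With a score of at least 10 they were 35 and 27 in LNCaP and 24 and 12 in resistant cells. With equal numbers they were 27 and 22 in LNCaP and 24 and 28 in resistant cells, so the groups overlapped. With the gene body alone they were 49 and 47 in LNCaP and 17 in each resistant library. Promoters higher without overlap went from 1 to 9 with equal numbers and 6 among shared sites, and lower ones from 1 to 0 in both. The median change of 1.84 became 28.0 and 13.5, and -2.00 to 6.59 without 1 library. The JARID2 change reversed to 11.1 with equal numbers, 3.29 among shared sites and 16.5 with the summit closest to a start. The cause of these changes was not tested.

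Sites called higher by limma numbered 0, and 2 by rank among shared sites, 4 on log2 scores and 5 with equal numbers. Sites called lower went from 0 to at most 1 without 1 resistant library, and higher ones stayed at 0 without any 1 library. With the replicate block, 2 promoters were lower in both same-numbered pairs, beside 28.9% of all genes, and 0 sites were called. Turning the trend off, added after seeing the data, also gave 0. The block changed no other call. For single promoters, neither the block nor leaving out 1 library can move a change past the pooled SD. Leaving out 1 library turned its sign for 7 of 10 genes, and the share over all genes was not counted. Of the other 121 alternative values, 64 stayed within 1 SD of the reported value or, for counts, within 1.5 times. With the closest summit the changes of EZH1 and PHF1 turned to 21.4 and -38.5.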
